A study of Mus musculus with 4 samples.

Results

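The noncoding snoRNA host genes are transcripts that code for no established protein and carry small nucleolar RNAs (snoRNAs) in their introns. The 8 members described here are Gas5, Snhg1, Snhg3, Snhg5, Snhg6, Snhg8, Snhg12 and Zfas1, chosen by name and not by their values as transcripts of the 5′TOP type that can be set beside ribosomal protein mRNAs. They are 8 of the 24411 genes listed in the expression tables. Of these, 7 were listed under their own symbol, and Zfas1 was listed under its older symbol 1500012F01Rik. All 8 passed the filter on low counts that left 13549 genes for testing.

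Late two-cell embryos of ICR mice, produced by in vitro fertilization and cultured in KSOM medium, were collected at 36 h post-insemination (hpi). Inhibitor-treated embryos had been cultured from the one-cell stage with 10074-G5, a small molecule that inhibits the transcription factor MYC, at 6 µM, and control embryos with its vehicle DMSO. The sample labels place the start of treatment at 3 hpi and the text on the series at 6 hpi. Each group had 2 libraries (replicates 1 and 2), each made by SMART-Seq v4 chemistry from poly(A) RNA of 10 pooled embryos. No library was untreated, and the replicates, described as biological, are not said to come from separate inseminations, so that p-values measure the spread between these pools only.

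Processing of a host transcript releases the snoRNAs from its introns, and snoRNAs guide 2′-O-methylation (C/D box class) or pseudouridylation (H/ACA box class) of other RNAs, ribosomal RNA above all. Many spliced host transcripts begin, like ribosomal protein mRNAs, with a 5′ terminal oligopyrimidine (5′TOP) tract, a C followed by a run of C and U. Their short reading frames engage ribosomes, and the spliced exons are known to be removed by nonsense-mediated decay in many cell types.

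The beginnings of the hosts were read from the RefSeq promoter table (GRCm38.p6), which held 8 start sites of 7 members, with 2 for Gas5 and none for Snhg6. Each line gives the 30 bases before and the 30 bases from the annotated start on, on the strand of the gene, and capitals mark the longest run of C and T that touches the 21 bases around the start. They are shown because a pyrimidine run at the start is what the 5′TOP class is defined by.
Gas5 first start (chr1:161034571-161034630, plus strand): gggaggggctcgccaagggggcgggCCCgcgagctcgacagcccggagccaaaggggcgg
Gas5 second start (chr1:161035136-161035195, plus strand): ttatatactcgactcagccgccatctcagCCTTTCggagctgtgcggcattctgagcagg
Snhg1 (chr19:8723457-8723516, plus strand): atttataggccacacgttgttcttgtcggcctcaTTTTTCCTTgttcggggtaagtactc
Snhg3 (chr4:132353657-132353716, minus strand): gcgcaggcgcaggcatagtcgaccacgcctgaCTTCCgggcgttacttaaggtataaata
Snhg5 (chr9:88522868-88522927, minus strand): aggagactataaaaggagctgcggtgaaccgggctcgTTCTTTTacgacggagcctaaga
Snhg8 (chr3:123508307-123508366, minus strand): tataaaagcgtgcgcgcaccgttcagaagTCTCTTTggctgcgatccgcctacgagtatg
Snhg12 (chr4:132308648-132308707, plus strand): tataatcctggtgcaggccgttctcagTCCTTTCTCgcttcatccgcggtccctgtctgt
Zfas1 (chr2:167062904-167062963, plus strand): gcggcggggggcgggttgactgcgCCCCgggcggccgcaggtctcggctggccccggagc

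The run was longest at Snhg1 and Snhg12, with 9 bases each. It was 7 bases at Snhg5 and Snhg8, 6 at the second Gas5 start, 5 at Snhg3, 4 at Zfas1 and 3 at the first Gas5 start. For the list of 79 ribosomal protein genes, the promoter table held 68 starts of 58 genes, so the shares below do not cover the whole list. A run of at least 6 bases was present at 5 of the 8 host starts (62.5%), at 37 of 68 starts of ribosomal protein genes (54.4%) and at 9847 of all 32851 starts in the table (30%). With at least 8 bases the shares were 2 of 8 (25%), 29 of 68 (42.6%) and 14.0%. A start that was itself a C with 4 pyrimidines after it was found at the second Gas5 start and at Snhg8, that is at 2 of 8 host starts, against 20.6% of ribosomal protein starts and 2.51% of all starts. The E-box CACGTG, the palindromic letters bound by MYC with MAX and so the same on both strands, was searched in the 300 bases around each start. It was found in 0 of 8 host promoters, in 8 of 68 ribosomal protein promoters (11.8%) and in 7.15% of all promoters. These are descriptions of annotated letters, not of sites in use.

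In the GENCODE M21 annotation, 30 entries of the snoRNA type lay inside the GENCODE spans of the 8 hosts on the same strand. Entries that overlap each other were counted as 1. The host positions printed here are those of RefSeq. Gas5 (chr1:161034601-161038539) held 9, of which 1 is typed as a snoRNA but named Mir5117, and Snhg1 (chr19:8723487-8726326) held 8. Snhg12 (chr4:132308678-132311024) held 4, Zfas1 (chr2:167062934-167065862) held 3, and both Snhg3 (chr4:132351933-132353686) and Snhg5 (chr9:88521052-88522897) held 2. Snhg6 (chr1:9942025-9944118) and Snhg8 (chr3:123507552-123508336) held 1 each. As examples of the cargo, 3 C/D box snoRNAs from a large, a small and a single-snoRNA host are given from the GENCODE transcripts, with the C box (TGATGA) and the D box (CTGA) in capitals.
Snord47 in Gas5 (chr1:161038082-161038158, plus strand): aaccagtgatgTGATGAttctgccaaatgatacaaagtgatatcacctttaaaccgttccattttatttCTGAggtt
Snord50a in Snhg5 (chr9:88521529-88521600, minus strand): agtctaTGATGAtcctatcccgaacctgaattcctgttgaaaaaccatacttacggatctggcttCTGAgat
Snord87 in Snhg6 (chr1:9942463-9942549, minus strand): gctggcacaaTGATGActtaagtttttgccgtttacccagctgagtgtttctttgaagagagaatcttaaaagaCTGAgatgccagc
Of the 30 entries, 9 were listed by name in the expression tables, and their counts summed to 0 over the 4 libraries. Poly(A) libraries do not capture mature snoRNAs, so all values that follow are of the host transcripts and not of their snoRNAs.

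The 4 libraries held between 18206584 and 20718690 expected counts, and DMSO replicate 1 stood apart from the rest. The summed level of 20 oocyte transcripts (among them Gdf9, Btg4 and Mos) came to 2244 FPKM there, against 7084 FPKM in the other control library and 14740 and 11070 FPKM in the inhibitor-treated libraries. Of these transcripts, 17 of 20 had a higher estimate in inhibitor-treated embryos, and 15 were higher with no overlap, against 28.9% of all genes tested. Zp3 lay in the other direction, with a log2FC of -1.37. The summed level of 12 two-cell markers (the Zscan4 genes, Zfp352 and others) was 1975, 5203, 6571 and 6940 FPKM in the same order, with 10 of 12 estimated higher in inhibitor-treated embryos and 7 higher with no overlap. Of 12 cumulus cell markers, 4 were at 0 in every library, and the list summed to between 7.47 and 22.2 FPKM. The median log2FC was 0.75 for the oocyte transcripts and 0.98 for the two-cell markers, and 0.42 and 0.32 without DMSO replicate 1. For the cumulus cell markers it was -0.59 over 4 tested genes, and 0.37 over 6 without DMSO replicate 1. The part of these differences in the values of the host genes was not tested. The log2FC of each host and the median of each comparison list are given below with and without DMSO replicate 1. The libraries are bulk pools, in which a lower share of a transcript from fewer cells and from less RNA per cell cannot be told apart.

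The host genes spanned a wide range of levels. In FPKM, a level per length, Snhg5 was the highest member in control embryos with 307 ± 95.3 (SD, n = 2), followed by Snhg1 with 257 ± 68.2 and Snhg3 with 175 ± 86.6. Snhg12 had 56.2 ± 5.58, Zfas1 53.4 ± 1.62, Snhg6 35.5 ± 20.1 and Gas5 15.2 ± 7.30, and Snhg8 was the lowest with 3.40 ± 0.120. Between neighbours in this order, the control libraries of Snhg5 and Snhg1, of Snhg1 and Snhg3, and of Snhg12 and Zfas1 overlapped, whereas those of the other neighbouring pairs did not. Over all 4 libraries Snhg5 ranked 602nd of the 24411 listed genes, Snhg1 697th, Snhg3 1104th, Gas5 4667th and Snhg8 7636th.

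**Figure D1:**
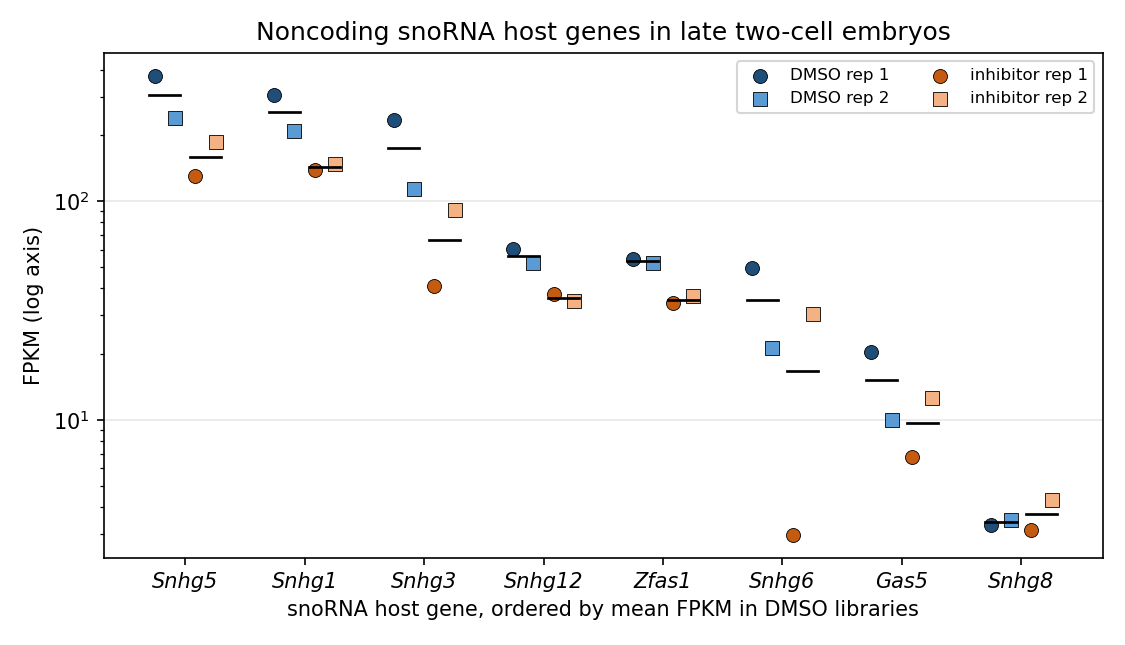
FPKM of the 8 host genes on a log axis, ordered by their mean in DMSO-treated control embryos. Each point is 1 library and each bar the mean of 2 libraries; the inhibitor-treated libraries lie below both control libraries for Snhg5, Snhg1, Snhg3, Snhg12 and Zfas1, while the groups overlap for Snhg6, Gas5 and Snhg8.

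The place of a gene in this order depended on the transcript model behind its FPKM. Gas5 was quantified on a length of 2554 bases, while GENCODE transcripts of Gas5 have between 346 and 2556 exonic bases. Gas5 therefore ranked near the bottom per length although its counts, with 885 in DMSO replicate 1 and 414 in DMSO replicate 2, exceeded those of Snhg3. Snhg8 was quantified on 785 bases, which is the whole span of its locus with no intron removed. Snhg1, Snhg3 and Snhg6 were quantified on 476, 437 and 407 bases.

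Together the 8 hosts summed to 1104 and 702 FPKM in control embryos and to 396 and 545 FPKM in inhibitor-treated embryos. Snhg5 gave between 33.1% and 34.3% of this sum in every library, and Snhg5 with Snhg1 between 61.5% and 68.3%. Other members varied more, with Snhg3 at 21.4% of the sum in DMSO replicate 1 and 10.4% in inhibitor replicate 1, and Snhg6 at 0.753% in inhibitor replicate 1 and 5.57% in inhibitor replicate 2.

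Whether MYC inhibition went with a lower level of these transcripts was asked with edgeR's quasi-likelihood test over all 13549 genes. No host passed an adjusted p of 0.05 with an absolute log2FC over 1, where log2FC is the log2 fold change of inhibitor-treated over control embryos, and neither did any of the other genes (0 of 13549, 0%). With 2 libraries a group, an exact two-sided permutation test of a single gene cannot go below p = 0.333. All 8 hosts had a log2FC below 0, against 48.5% of all genes tested. In 5 of 8 both inhibitor-treated libraries lay below both control libraries, a pattern shown by 28.3% of all genes in this direction and by 28.9% in the other, in which no host lay. An unadjusted p under 0.05 with a lower level was reached by 2 of 8 hosts, against 10.1% of all genes, and with a higher level by 0 of 8, against 4.72%. A log2FC below -1 was estimated for 3 of 8 hosts, against 17.8% of all genes. The median log2FC of the hosts was -0.91, that of all genes 0.04.

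Snhg5, the host of Snord50a and Snord50b, had 374.5 and 239.8 FPKM in DMSO replicates 1 and 2 and 131 and 187 FPKM in the inhibitor-treated libraries. Both inhibitor-treated values lay below both control values. The log2FC was -1.12 (SE 0.43, edgeR adjusted p = 0.333), and -0.59 without DMSO replicate 1.

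Snhg3, the host of the H/ACA snoRNAs Snora73a and Snora73b, had 236 and 114 FPKM in control embryos and 41.1 and 91.3 FPKM in inhibitor-treated embryos. The groups did not overlap, but the gap between DMSO replicate 2 and inhibitor replicate 2 was smaller than the distance between the replicates of either group. Its log2FC of -1.58 (SE 0.62, edgeR adjusted p = 0.333) was the lowest of the 8, and it was -0.77 without DMSO replicate 1.

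Snhg1, which carries Snord22 and a series of other C/D box snoRNAs, had 305 and 209 FPKM in control embryos and 139 and 148 FPKM in inhibitor-treated embryos. The inhibitor-treated libraries were close to each other and below both controls. The log2FC was -0.99 (SE 0.43, edgeR adjusted p = 0.343), and -0.52 without DMSO replicate 1.

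Snhg12, the host of Snora16a, Snora44, Snora61 and Snord99 and Zfas1, the host of Snord12, had close replicates in both groups. Snhg12 had 60.2 and 52.3 FPKM in control embryos and 37.5 and 34.8 FPKM in inhibitor-treated embryos. Zfas1 had 54.6 and 52.3 FPKM in control embryos and 34.2 and 36.7 FPKM in inhibitor-treated embryos. In both genes all inhibitor-treated values lay below all control values, with each group's values within 8 FPKM of each other. The log2FC of Snhg12 was -0.78 (SE 0.47, edgeR adjusted p = 0.432), and that of Zfas1 was -0.73 (SE 0.43, edgeR adjusted p = 0.426). Without DMSO replicate 1 they were -0.52 and -0.55.

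Gas5, a host of many snoRNAs named for its higher level in growth-arrested cells, had 20.3 and 10 FPKM in control embryos and 6.77 and 12.6 FPKM in inhibitor-treated embryos. Inhibitor replicate 2 lay above DMSO replicate 2, so the groups overlapped. The log2FC of -0.84 (SE 0.56, edgeR adjusted p = 0.475) moved to -0.05 without DMSO replicate 1 and to -1.34 without DMSO replicate 2.

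Snhg6, the host of Snord87, had 49.7 and 21.3 FPKM in control embryos and 2.98 and 30.4 FPKM in inhibitor-treated embryos. The inhibitor-treated libraries were on either side of DMSO replicate 2. They differed 9.83-fold in CPM, with 9 counts (95% exact Poisson interval 4.1 to 17.1) in inhibitor replicate 1 and 86 counts (68.8 to 106.2) in inhibitor replicate 2, intervals that cover counting error only. The log2FC was -1.28 (SE 1.11, edgeR adjusted p = 0.577), and leaving out 1 library at a time moved it between -3.70 and -0.34. Without DMSO replicate 1 it was -0.34, and without inhibitor replicate 2 it was -3.70.

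Snhg8, the host of Snora24, had 3.31 and 3.48 FPKM in control embryos and 3.12 and 4.29 FPKM in inhibitor-treated embryos, from 32, 32, 33 and 43 counts. The groups overlapped and the counting intervals of the 4 libraries overlapped. The log2FC of -0.01 (SE 1.02, edgeR adjusted p = 0.997) leaves a wide range of values possible in either direction, and its sign turned with the scaling, with 0.13 by library totals, and without DMSO replicate 1, with 0.10.

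A count test that also took the lengths into account, DESeq2 on all genes with the effective lengths as offsets, called 426 of 18208 genes lower (2.34%) and 0 of 8 hosts. The adjusted p values of DESeq2 were 0.0891 for Snhg3, 0.105 for Snhg5 and 0.164 for Snhg1. Those of Gas5, Zfas1 and Snhg12 lay between 0.331 and 0.336, and Snhg6 and Snhg8 were given none. Without DMSO replicate 2, edgeR called Gas5, Snhg1, Snhg3 and Snhg5 lower, in a fit that called 2065 of 14669 genes lower (14.1%) and in which the lone control library was assumed to vary like the others.

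Between replicates of a group, most hosts differed in the same direction. In CPM, counts scaled to the TMM-adjusted library size, all 8 hosts were higher in DMSO replicate 1 than in DMSO replicate 2, by 1.13-fold (Snhg8) to 2.78-fold (Snhg6). Over all genes tested, 6487 of 13549 were higher in DMSO replicate 1 than in DMSO replicate 2. Of the hosts, 7 of 8 were higher in inhibitor replicate 2 than in inhibitor replicate 1, against 6717 of 13549 genes tested. In FPKM, 7 of 8 hosts had their highest value in DMSO replicate 1, and 7 of 8 had their lowest in inhibitor replicate 1. The median absolute log2 ratio between the DMSO replicates was 0.85 over the hosts and 0.83 over all genes tested. The size of the difference was thus about that of other genes, while its direction in CPM was the same in all 8 hosts. For Snhg8 that direction rested on the scaling. It had 32 counts in both DMSO libraries, and 3.31 FPKM in DMSO replicate 1 against 3.48 FPKM in DMSO replicate 2.

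**Figure D2:**
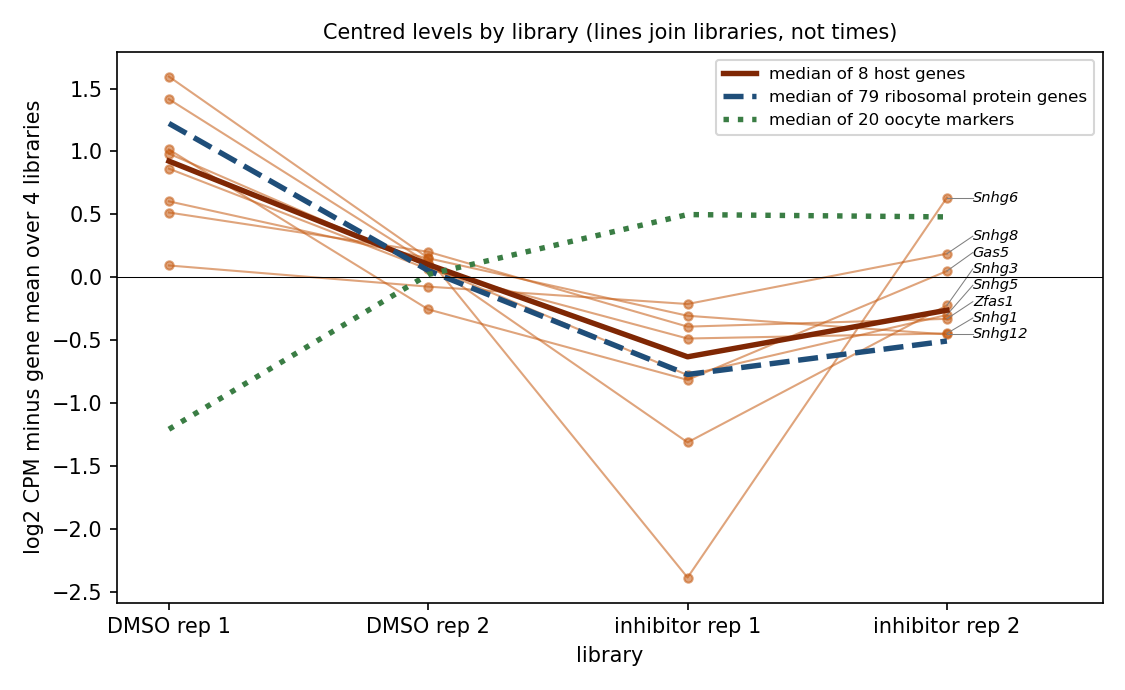
Centred log2 CPM of the 8 hosts in each library (thin lines), with the medians of the hosts, of 79 ribosomal protein genes and of 20 oocyte markers (thick lines). The host median goes from 0.92 in DMSO replicate 1 to -0.63 in inhibitor replicate 1, and the oocyte markers are lowest in DMSO replicate 1, where the hosts are highest.

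Ribosomal protein mRNAs, the prototype of the 5′TOP class, were the comparison for which the hosts were chosen. All 79 ribosomal protein genes tested had a log2FC below 0, against 48.5% of all genes tested. The median was -1.36, with a range from -2.90 to -0.69. In 78 the inhibitor-treated libraries were lower with no overlap, against 28.3% of all genes tested. The estimates lay further below 0 in the ribosomal protein list than in the hosts, whose median was 0.45 higher. Of the hosts, 7 of 8 had a log2FC above the ribosomal protein median, with Snhg3 below it, and 74 of 79 ribosomal protein genes had a log2FC below the host median. Without DMSO replicate 1 the medians were -0.52 for the hosts and -0.65 for the ribosomal protein genes, a difference of 0.13. In that setting 5 of 8 hosts and 78 of 79 ribosomal protein genes were below with no overlap, against 36.4% of all genes.

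The difference between the lists can be followed library by library. Centred on the mean of each gene over the 4 libraries, the host median was 0.92 and 0.10 in the control libraries and -0.63 and -0.26 in the inhibitor-treated libraries, on the log2 scale, replicate 1 first. The ribosomal protein median was 1.22, 0.06, -0.77 and -0.50 in the same order. The host median was below the ribosomal protein median by 0.30 in DMSO replicate 1 and above it by 0.05, 0.14 and 0.24 in the other libraries. DMSO replicate 1 was the library with the widest gap between the lists. The summed level of the ribosomal protein genes was 102400 and 54080 FPKM in control embryos and 29930 and 37050 FPKM in inhibitor-treated embryos. Rpl41, the highest of them, had 17181 and 9190 FPKM in control embryos and 3843 and 5009 FPKM in inhibitor-treated embryos. Its log2FC was -1.74 (SE 0.49, edgeR adjusted p = 0.333), and -1.03 without DMSO replicate 1. The lengths-corrected DESeq2 test called 32 of 79 ribosomal protein genes lower, against 0 of 8 hosts and 426 of 18208 genes (2.34%). Of the hosts, Snhg6 and Snhg8 were given no adjusted p and so could not be called. This is a comparison of counts of calls, and the difference between the lists has no test of its own here.

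**Figure D3:**
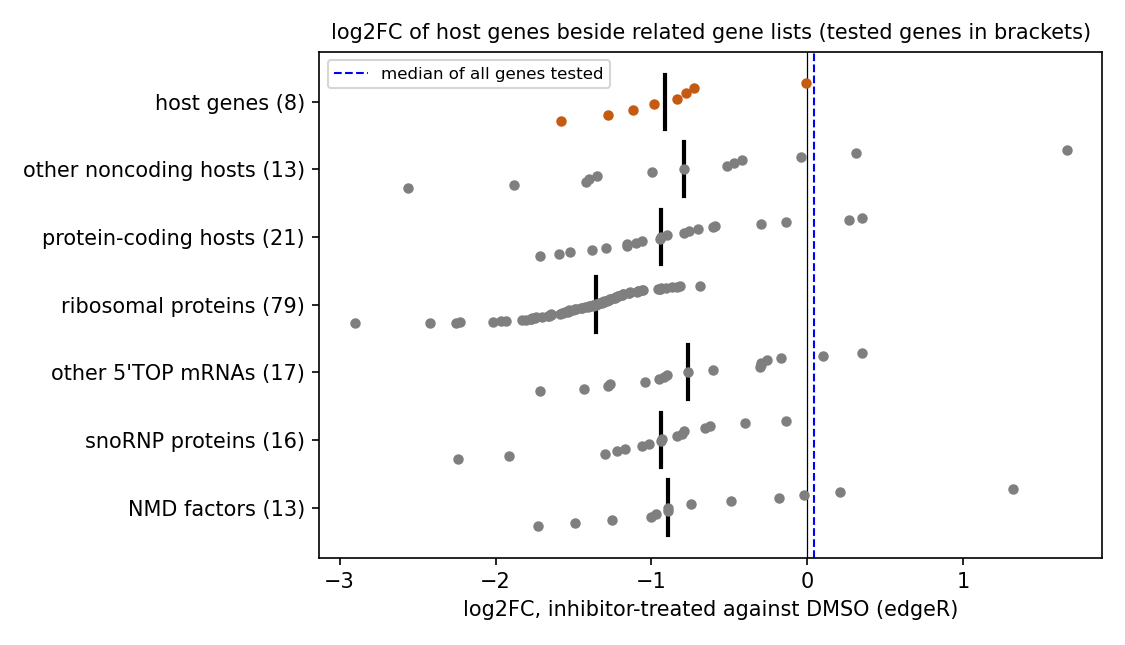
log2FC of each tested gene in 7 lists (points) with the median of each list (black bar) and of all genes tested (dashed line). The hosts (median -0.91) lie to the right of most of the 79 ribosomal protein genes (median -1.36) and near the protein-coding hosts (median -0.94).

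Other host genes and the proteins that act on snoRNAs give the setting for the 8 members, and all these lists share the same 4 libraries. Some also share genes, so their medians are not separate. The protein-coding snoRNA hosts share Rack1, Eef1b2, Eef2 and Tpt1 with the other 5′TOP mRNAs. They share Nop56, Nop58 and Dkc1 with the proteins that bind and assemble snoRNAs. Of 13 other noncoding snoRNA hosts that were tested, 11 had a log2FC below 0 and 2 above it, with a median of -0.79. With no overlap, 7 were lower and 1 was higher, the latter against 28.9% of all genes tested. The shares over all genes tested, 48.5% below 0 and 28.3% lower with no overlap, stand beside these counts and those of the lists that follow. In the fit without DMSO replicate 1, 14 other noncoding hosts were tested, 9 of them below 0, with a median of -0.41. Among them Dancr had 57.9 and 47.1 FPKM in control embryos and 15.7 and 28.1 FPKM in inhibitor-treated embryos (log2FC -1.42, edgeR adjusted p = 0.333, and -1.10 without DMSO replicate 1). Snhg15, with 503.6 and 394.6 FPKM in control embryos and 259 and 315 FPKM in inhibitor-treated embryos, was more abundant per length than any of the 8 members. Snhg14, the long host from an imprinted locus, had a log2FC of -2.56 (SE 0.85, edgeR adjusted p = 0.333), and -1.48 without DMSO replicate 1. Protein-coding snoRNA hosts had a median of -0.94, close to that of the noncoding hosts, with 19 of 21 below 0 and 15 lower with no overlap, and a median of -0.47 without DMSO replicate 1. Gnl3, a nucleolar GTPase, and Wdr43, a factor of small-subunit assembly, had log2FC values of -1.60 and -1.38 (edgeR adjusted p = 0.333 for both), and -0.78 and -0.84 without DMSO replicate 1.

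Tpt1, both a snoRNA host and a 5′TOP mRNA, lay in the other direction. It had 1454 and 1740 FPKM in control embryos and 2397 and 2051 FPKM in inhibitor-treated embryos, with both inhibitor-treated values above both control values (log2FC 0.35, SE 0.37, edgeR adjusted p = 0.647, and 0.36 without DMSO replicate 1). Of the 17 other 5′TOP mRNAs tested, which encode mostly translation factors, 15 had a log2FC below 0, with a median of -0.77, and Rack1 and Eif3e had -1.71 and -1.43 (edgeR adjusted p = 0.333 for both). Without DMSO replicate 1 the median was -0.29, with -0.69 for Rack1 and -0.60 for Eif3e. The estimates of the listed 5′TOP mRNAs thus did not all lie on the same side of 0.

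The proteins that bind and assemble snoRNAs had a log2FC below 0 in 16 of 16 genes, with a median of -0.94 and 15 lower with no overlap, against 28.3% of all genes tested. The median was -0.49 without DMSO replicate 1. Snu13, which binds the C/D box fold, had 3887 and 2563 FPKM in control embryos and 1366 and 1867 FPKM in inhibitor-treated embryos (log2FC -1.17, edgeR adjusted p = 0.333, and -0.66 without DMSO replicate 1). Znhit3, an assembly factor of C/D box particles, and Naf1, one of H/ACA particles, had -1.91 and -2.24 (edgeR adjusted p = 0.333 for both), and -1.24 and -1.04 without DMSO replicate 1. Of 13 tested nonsense-mediated decay factors, which act on spliced host transcripts, 11 had a log2FC below 0, with a median of -0.90. In the fit without DMSO replicate 1, 14 such factors were tested, 10 of them below 0, with a median of -0.39. Casc3 had -1.49, Smg8 -1.73 and Magoh, a core protein of the exon junction complex, -0.97 (edgeR adjusted p between 0.333 and 0.343), and without DMSO replicate 1 they had -1.26, -0.86 and -0.41.

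The genes beside the hosts were read from the RefSeq annotation. Of the 16 nearest listed genes that do not overlap a host, 1 before and 1 after each, 15 were tested, 11 with a log2FC below 0 and 4 above it. Wdr74, a ribosome assembly factor on the same strand downstream of Snhg1, had a log2FC of -2.06 (edgeR adjusted p = 0.333), and -1.05 without DMSO replicate 1, both lower than the values of Snhg1 itself. Rcc1, on the same strand as Snhg3, had -1.24 (edgeR adjusted p = 0.333, and -1.19 without DMSO replicate 1). It lies 6182 bases from Snhg3 in RefSeq, whereas in GENCODE it begins 81 bases from Snhg3 and shares its locus. Whether reads of the region shared in GENCODE were counted for either gene was not tested. Trnau1ap, next to Snhg12 in the convergent direction, had 0.52 (edgeR adjusted p = 0.499), and 0.49 without DMSO replicate 1.

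In 3 members a protein-coding gene begins within 1000 bases on the opposite strand in GENCODE, and these partners lay on the other side of 0 from the hosts. Slc3a2, the heavy chain of amino acid transporters, begins 106 bases from Snhg1. It had 50.9 and 105 CPM in control embryos and 164 and 114 in inhibitor-treated embryos, with no overlap (log2FC 0.84, SE 0.46, edgeR adjusted p = 0.398). A higher level with no overlap was shown by 28.9% of all genes tested. The ratio of Snhg1 to Slc3a2 was 1.40 and 0.390 in control embryos and 0.170 and 0.251 in inhibitor-treated embryos. These ratios could not overlap between the groups, since Snhg1 was lower and Slc3a2 higher with no overlap.

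Zbtb37, a zinc finger gene, and Znfx1, an RNA helicase gene, overlap the beginnings of Gas5 and Zfas1 and were picked after their values were seen. Znfx1 begins 81 bases from Zfas1 and had 2.93 and 9.64 CPM in control embryos and 22.5 and 14.8 in inhibitor-treated embryos (log2FC 1.57, SE 0.67, edgeR adjusted p = 0.337). The ratio of Zfas1 to Znfx1 was 9.78 and 2.40 in control embryos and 0.678 and 1.08 in inhibitor-treated embryos. Here too the ratios could not overlap, since Zfas1 was lower and Znfx1 higher with no overlap. Zbtb37 begins 427 bases from Gas5 and had 16.4 and 29.9 CPM in control embryos and 49.4 and 32.5 in inhibitor-treated embryos (log2FC 0.82, SE 0.48, edgeR adjusted p = 0.421). The ratio of Gas5 to Zbtb37 overlapped between the groups, with 3.24 and 0.733 against 0.301 and 0.834. Without DMSO replicate 1 the log2FC was 0.42 for Slc3a2, 0.96 for Znfx1 and 0.46 for Zbtb37. The overlap is 82 bases for Znfx1 and 428 bases for Zbtb37, and since the sources used here do not say that strand was used in counting, reads of these stretches cannot be told apart between the partners.

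**Figure D4:**
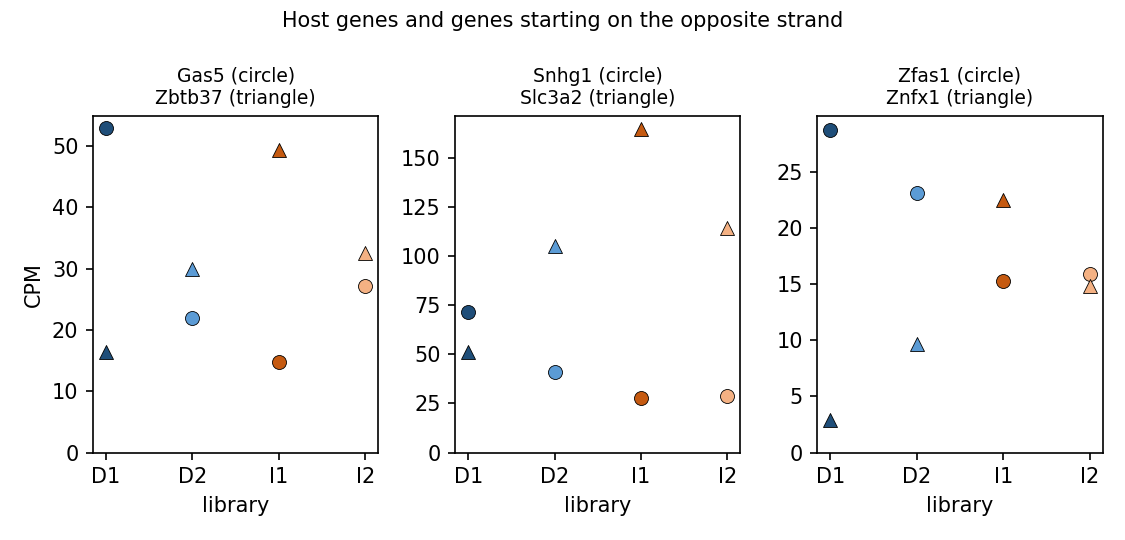
CPM of 3 hosts (circles) and of the gene that begins near them on the opposite strand (triangles) in DMSO replicates 1 and 2 (D1, D2) and inhibitor replicates 1 and 2 (I1, I2). The triangles of Slc3a2, Znfx1 and Zbtb37 are higher in both inhibitor-treated libraries than in both control libraries, and the circles of Snhg1 and Zfas1 are lower.

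The genes whose pattern over the 4 libraries was nearest to the median pattern of the hosts were found among 5149 tested genes with a mean of at least 10 FPKM, by Euclidean distance of centred log2 CPM. They were Dtymk (distance 0.0697), Nifk (0.0879), Ndufaf1 (0.0919), Ppp1r15a (0.0974) and Tiprl (0.0984). Dtymk encodes thymidylate kinase, Nifk a nucleolar protein, Ndufaf1 an assembly factor of respiratory complex I, Ppp1r15a a phosphatase subunit of the integrated stress response and Tiprl a regulator of phosphatases. Their log2FC values lay between -1.05 and -0.98. With 4 libraries, closeness of pattern is a description and was not tested.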

How the data were processed

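RNA-seq tables of 4 libraries (2 per group, 10 pooled embryos each) were used. Per the labels and the methods, reads were aligned with STAR 2.7.10 to mm10 and quantified with RSEM 1.3.3; the strand setting is not given in the sources used here. The authors deposited for each gene an expected count, TPM, FPKM, and a length and effective length in bases; between 3.97% and 4.49% of the expected counts were not whole. TPM values were not used. The authors used DESeq2 for their comparison. Here expected counts (18206584 to 20718690 per library) were rounded to whole numbers and fitted with edgeR 4.0.16 in R 4.3.3 (filterByExpr minimum count 10, TMM factors, quasi-likelihood test, Benjamini-Hochberg adjustment, common biological coefficient of variation 0.557). A call needed an adjusted p under 0.05 and an absolute log2FC over 1. Levels are given as the deposited FPKM. Alternatives were DESeq2 1.42.0, limma 3.58.1 on log2 FPKM with a pseudocount of 1 or 0.1 where the mean FPKM was at least 1, other scalings and filters, the replicate number as a block, and leaving out each library.

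All 8 members were named. From each comparison list, the 2 genes with the smallest unadjusted p and the 1 with the highest mean FPKM were eligible to be named, as were the nearest listed genes of each host and the 5 nearest patterns. The members and lists were chosen with earlier results of these data known, so counts over a list are descriptions. Positions and promoters are from RefSeq (GRCm38.p6), snoRNAs from GENCODE M21 on the same assembly, and Zfas1 was matched through its RefSeq synonym.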

Additional observations from a re-analysis of the deposited data

How the results depend on the processing

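Over all genes, edgeR called 0 of 13549, and 1374 lower and 639 higher genes had an unadjusted p under 0.05. No gene was called with either limma fit, with DESeq2 size factors, with library totals or with at least 10 counts in every library. DESeq2 called 566 genes on the same genes, 524 on all genes and 508 with lengths, edgeR without a filter 644, and edgeR with the replicate number as a block (replicate block) 44. Leaving out 1 library gave 2 to 4213 calls. The cause of these differences was not tested. The replicate block changed no call of a host, with a host median of -0.85. The deviations of libraries with the same number had a correlation of -0.03 over genes. With 2 libraries a group, this value cannot tell whether libraries with the same number share an insemination. The numbers were taken as names only. Hosts that did not overlap went from 5 to between 5 and 8 on leaving out 1 library. A group of 1 library makes this pattern easier to reach. Without DMSO replicate 1 it was shown by 5 of 8 hosts and 36.4% of all genes, against 28.3% of all genes with all 4 libraries. For the other fits the share over all genes is not given, so their counts have no comparison. The host median lay between -1.34 and -0.52 and the ribosomal protein median between -1.84 and -0.65 on leaving out 1 library. The log2FC of Snhg8 changed sign, to 0.0874 with limma at a pseudocount of 1, 0.106 at 0.1, 0.13 with library totals and 0.0173 with at least 10 counts, and lay between -0.24 and 0.23 on leaving out 1 library. The other 7 hosts were below 0 in every alternative that gave them a value. Library totals moved the median of all genes from 0.04 to 0.17, and the host median relative to it was also below 0. Low counts limit Snhg6 and Snhg8, and Snhg6 had no value where at least 10 counts in every library were required. No test of outliers was made in groups of 2.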
